A study of Mus musculus with 4 samples.

Results

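The subject is the transcripts of the translation initiation factors, the proteins that bring a ribosome to the start codon of an mRNA. They were chosen by name: every gene whose symbol begins with Eif followed by a digit from 1 to 6, leaving out the Eif2c genes (Argonautes) and the Eif2ak genes (eIF2 alpha kinases). Of 21506 genes in the deposited tables, 48 met this rule, and 45 of these reached 1 RPKM (reads scaled to exon length and library size) in at least 2 libraries and entered the test. The factor eIF2D, listed there under the older symbol Lgtn, was not among them.

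All libraries came from 32Dclone3, a mouse myeloid cell line grown with serum and with interleukin-3 supplied as WEHI medium. The control group (2 libraries) had been stably infected with the XZ virus, and the other group (2 libraries) with XZ-miR-125b. Each infection of a condition used its own virus supernatant, and poly(A)-enriched RNA was sequenced on an Illumina instrument. The design asked how expression differs between vector and miR-125b cells. Every cell thus carried a viral vector, and both groups are cultures of 1 line.

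Initiation proceeds in steps. eIF2, loaded with GTP and initiator tRNA, joins the small ribosomal subunit with eIF1, eIF1A, eIF3 and eIF5, while eIF4E binds the mRNA cap and is joined by the scaffold eIF4G and the helicase eIF4A. After scanning to a start codon, eIF5B brings in the large subunit, and eIF2B recharges eIF2. The pathway is held in check at the cap by the 4E-BPs, small proteins that occupy eIF4E until mTOR phosphorylates them, and at eIF2B by phosphorylated eIF2.

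The mature miRNA that the virus expresses is shown first with the places in initiation factor mRNAs that its seed can pair with, because a miRNA lowers mRNAs mainly through such pairing. The mature sequence is RefSeq's (GRCm38.p6), identical for the Mir125b-1 locus (chr9:41581940-41581961, plus strand) and the Mir125b-2 locus (chr16:77646279-77646300, plus strand), and capitals mark the seed, bases 2 to 8.

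mmu-miR-125b-5p: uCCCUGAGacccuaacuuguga

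Among the 45 tested members, all with an annotated 3′ UTR, 6 (13.3%) held an 8mer or 7mer-m8 match to this seed in the longest one, against 15.6% of 9947 tested genes with a 3′ UTR. The letters searched were CTCAGGG (7mer-m8), CTCAGGG with a following A (8mer), TCAGGGA (7mer-A1) and TCAGGG (6mer), on the mRNA strand only, each gene being given its longest match. A further 1 tested member had a 7mer-A1 match at best, 4 had a 6mer and 34 had none. The matches of 5 of the 6 are printed from GENCODE M21 (GRCm38) transcripts, with the pairing bases in capitals. The sixth gene, Eif4ebp3, held 1 7mer-m8 match.

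Eif1ad, 8mer, chr19:5370098-5370125, plus strand: acttctctatttgCTCAGGGActacccc
Eif1ad, 7mer-m8, chr19:5370692-5370719, plus strand: tttttccaatttcCTCAGGGtataaatt
Eif3k, 7mer-m8, chr7:28972207-28972232, minus strand: agacttgtccaCTCAGGGctgtggct
Eif4e2, 7mer-m8, spliced between chr1:87232463 and chr1:87237854, plus strand: tctgtctctcacaCTCAGGGgacaattc
Eif4ebp1, 7mer-m8, chr8:27275227-27275254, plus strand: gtcctgctcctcaCTCAGGGtgccagct
Eif4g2, 7mer-m8, chr7:111067888-111067915, minus strand: gagctgtagtcacCTCAGGGttggaccc

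The libraries held 11.2 and 10.4 M reads in control cells and 12.6 and 11.7 M in miR-125b cells, and the 48 members took 1.5%, 1.14%, 1.40% and 1.34%, in that order, of the reads counted over 1 row per gene. At 1 kb of exon, a floor of 3 reads came to between 0.238 and 0.289 RPKM (counting error alone). The miR-125b hairpin at Mir125b-1 drew no read in controls and 4 reads per miR-125b library. Markers of a myeloid progenitor summed to 867 and 1660 RPKM in controls against 1431 and 1015 RPKM under miR-125b over 9 of 10 listed genes (Spi1 was not found under that symbol), among which the receptor gene Kit stood at 0 in 3 libraries and at 0.0186 RPKM in control replicate 2. The sum hides single genes: of 8 tested, 6 were lower with miR-125b and 2 higher. Mpo gave 39.1 and 54.2 RPKM in controls against 273 and 105 RPKM under miR-125b. Cd33 gave 4.61 and 4.42 RPKM in controls against 1.23 and 1.62 RPKM under miR-125b. Summed markers reached at most 9.94 RPKM for stroma (8 genes; Col1a2, Col3a1 and Dcn at 0 throughout), 5.12 RPKM for lymphoid cells (8 genes; Ms4a1 and Pax5 at 0) and 10.1 RPKM for erythroid cells (5 genes; Hbb-b1 at 0). Of the stromal genes, Pdgfrb gave 4.85 and 8.46 RPKM in controls against 8.53 and 2.46 RPKM under miR-125b. Thy1 gave 0.257 and 0.722 RPKM in controls against 1.19 and 2.31 RPKM under miR-125b. The lymphoid gene Cd79b gave 1.04 and 1.21 RPKM in controls against 1.39 and 4.62 RPKM under miR-125b. The erythroid genes Klf1 and Epor lay between 2.83 and 5.44 RPKM and between 2.78 and 6.32 RPKM. In bulk RNA a smaller number of cells of one kind and less RNA per cell cannot be told apart.

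None of the initiation factor transcripts passed the test between the groups. No member had an adjusted p under 0.05 in limma's test, as was so for all tested genes (0%, 0 of 10310, with a smallest member adjusted p of 0.509). With limma-voom on recovered reads the count over all genes was likewise 0, with 1003 genes at an unadjusted p under 0.05. At an unadjusted p under 0.05 there was 1 member of 45 (2.22%), Eif4ebp2, against 967 of 10310 genes (9.38%). The median log2 fold change on the log2(RPKM + 1) scale was 0.049 for the members, of which 30 were positive and 15 negative, and 0.024 for all tested genes. No member differed by 1 or more on that scale (1.91% of all genes did), and 2 members, Eif4ebp2 and Eif2a, differed by 0.5 or more (12.6% of all genes).

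The 2 groups did not overlap in 7 members that were lower with miR-125b (15.6%, against 20.4% of all tested genes) and 7 that were higher (15.6%, against 22.3%). The lower ones were Eif1, Eif1ad, Eif2b4, Eif3g, Eif4a1, Eif4e3 and Eif4ebp2, and the higher ones Eif2a, Eif3c, Eif3i, Eif3l, Eif3m, Eif4ebp3 and Eif4h. Both shares were under those of all genes. They include members whose groups were barely apart, such as Eif1ad.

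**Figure D1:**
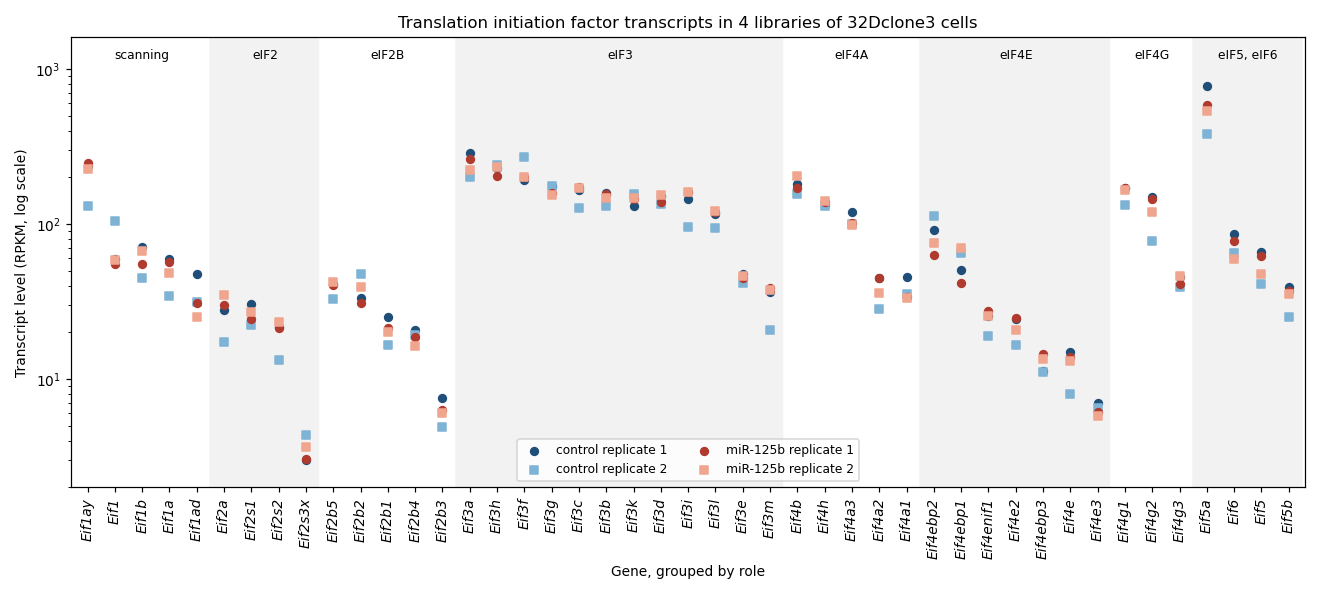
Transcript levels (RPKM, log axis) of the 45 tested initiation factor genes, ordered within each role by mean level, with 1 point for each of the 4 libraries. Eif5a stands highest and Eif2s3x lowest, and the light blue squares of control replicate 2 are the lowest of the 4 points in 30 genes.

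The wider spread lay between the 2 controls. Control replicate 2 was the lowest of the 4 libraries in 30 of 45 members (66.7%) and the highest in 8, against 37.0% and 31.9% of all tested genes. It lay below control replicate 1 in 36 members (80%, all genes 51.5%), with a median difference of -0.37 on the log2(RPKM + 1) scale for the members and -0.016 for all genes. The 2 miR-125b libraries were closer to each other, with a median absolute difference of 0.12 over the members against 0.43 between the controls (0.15 against 0.29 over all genes). In 17 members (37.8%, all genes 22.1%) both miR-125b values fell between the control values.

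The difference between the controls was more negative at lower GC content of the transcript. Spearman's rho was 0.50 and Pearson's r 0.42 over the 45 members, and rho was 0.48 over 10262 tested genes with a GC value. Between the miR-125b libraries rho was 0.18 for the members and 0.051 for all genes. The difference of miR-125b from control also went with GC, with a rho of -0.38 for the members and -0.28 for all genes. These are descriptions across genes that share the same libraries. GC content was that of the GENCODE transcript, which can differ in length from the row counted. For Eif1ay that transcript had 5172 bases against 926 exonic bases in the row, and for Eif4e 4991 against 2882. Whether base composition played a part in the members' values was not tested. With the GC trend removed from each library the members' median was 0.057, and the member at an unadjusted p under 0.05 was Eif4ebp2. Log2 fold changes moved from 0.26 to 0.11 for Eif4e, from 0.16 to 0.0056 for Eif4a2, from 0.29 to 0.17 for Eif4g2 and from 0.42 to 0.26 for Eif1ay. Others grew in size, from -0.021 to -0.17 for Eif2s1, from -0.15 to -0.25 for Eif4e3 and from -0.25 to -0.31 for Eif4a1. Eif5a moved from 0.036 to 0.086. The sign changed in 5 members, Eif2b1, Eif2b3, Eif3a, Eif3e and Eif5.

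**Figure D2:**
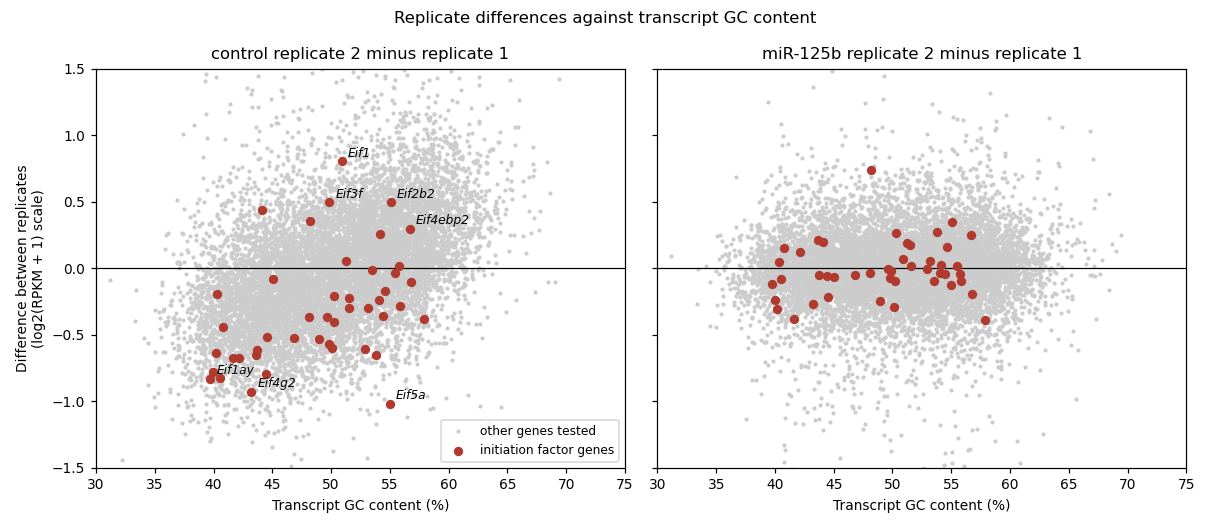
Difference between replicate 2 and replicate 1 on the log2(RPKM + 1) scale against transcript GC content, for the controls (left) and the miR-125b libraries (right); red points are the 45 initiation factor genes and grey points the other tested genes, of which 70 and 67 lie outside the axes. On the left 36 of the red points lie below 0, with Eif5a at -1.02 and Eif1 at 0.80, and on the right they gather closer to 0.

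The members' counts depended on which control was used. A lone control shows no spread of its own, so these fits took their residual spread from the miR-125b libraries alone, which lay closer together. Their p-values therefore do not measure the spread between controls. Without control replicate 1, 12 members (26.7%, against 15.2% of all genes) had an unadjusted p under 0.05 and were higher with miR-125b, and 3 (6.67%, against 14% of all genes) were lower. The 12 were Eif1a, Eif1ay, Eif2a, Eif2s2, Eif3c, Eif3i, Eif3m, Eif4e, Eif4enif1, Eif4g2, Eif5a and Eif5b, and the members' median was 0.28. Without control replicate 2 none was higher and 3 (6.67%, against 5.46% of all genes) were lower, namely Eif1ad, Eif4a1 and Eif5a, and the median was -0.073. Eif5a was thus counted as higher in one case and as lower in the other.

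**Figure D3:**
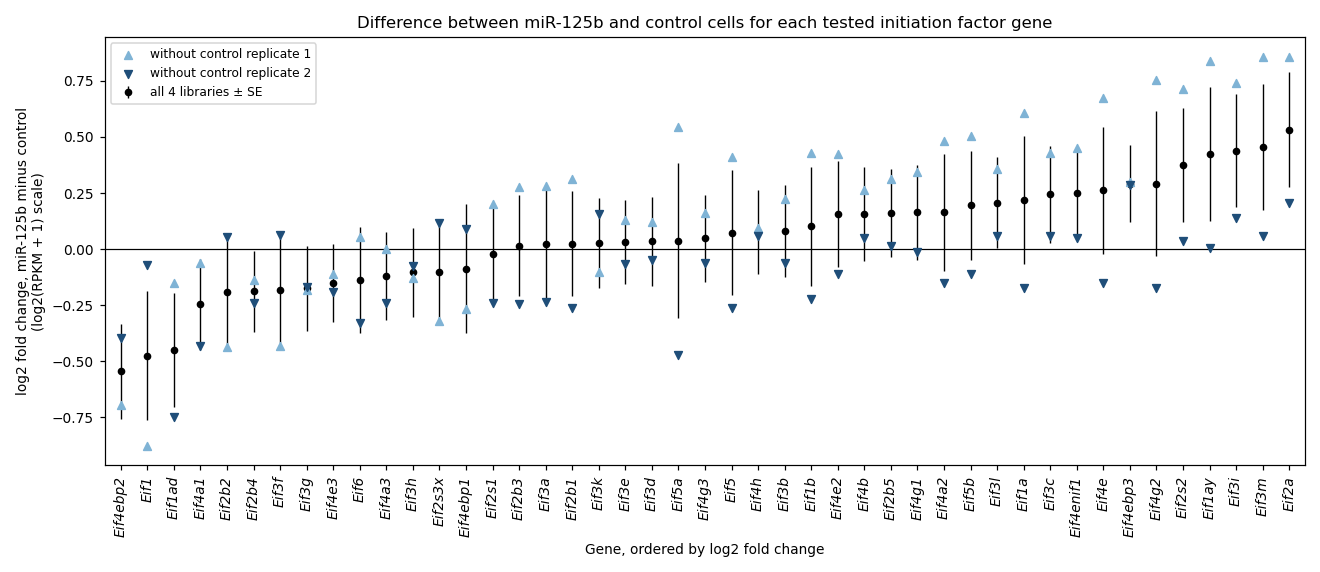
Log2 fold change of miR-125b against control cells (log2(RPKM + 1) scale) for the 45 tested members, with all 4 libraries (black, ± SE) and with either control library left out (triangles). The black points run from -0.55 for Eif4ebp2 to 0.53 for Eif2a, and for 28 genes the value without control replicate 2 is below 0, against 14 without control replicate 1.

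The cap-binding step held the only member at an unadjusted p under 0.05. Eif4ebp2 encodes 4E-BP2, a translational repressor that competes with eIF4G for eIF4E. It gave 91.4 and 112 RPKM in controls against 63.3 and 75.5 RPKM under miR-125b (chromosome 10, 60895245 to 60915417 in mm9, minus strand, 1786 exonic bases). Both miR-125b values lay below both control values, and the control mean was 1.47 times the miR-125b mean. The log2 fold change was -0.55 ± 0.21 (SE, n = 2 libraries each), with an unadjusted p of 0.0386 and an adjusted p of 0.509 in limma's test, which it did not pass. With libraries left out in turn it ran from -0.69 to -0.40, and it was -0.46 with the GC trend removed. Its unadjusted p was under 0.05 without control replicate 1, but not without control replicate 2 or without either miR-125b library. Its 3′ UTR held 2 6mer matches and no longer one. Its GENCODE transcript, of 1422 bases, shared no 36-base stretch with any other annotated gene. The row of Eif4ebp2 rested on 1427 to 2083 reads per library.

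The other 4E-BP genes had other patterns, and the differences between them were not tested. Eif4ebp1, which encodes the 4E-BP best known as an mTOR substrate and carries the 7mer-m8 match printed above, gave 50.3 and 64.6 RPKM in controls against 41.3 and 69.5 RPKM under miR-125b. The 2 miR-125b values enclosed both controls. The log2 fold change was -0.088 ± 0.29 (SE) and ran from -0.46 to 0.28 with libraries left out. Eif4ebp3 gave 11.2 and 11.1 RPKM in controls against 14.4 and 13.4 RPKM under miR-125b. Both miR-125b values were above both controls, with a log2 fold change of 0.29 ± 0.17 (SE) and an unadjusted p of 0.136. That row rested on 85 to 134 reads, and 66.2% of its transcript's 36-base stretches also occur in an overlapping gene.

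Eif4ebp2 made up 59.8% and 59.7% of the RPKM summed over the 3 4E-BP genes in controls, against 53.2% and 47.7% under miR-125b. The sum itself was 153 and 188 RPKM in controls against 119 and 158 RPKM under miR-125b, so that the groups overlapped.

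Eif4e, the cap-binding protein itself, gave 14.9 and 7.99 RPKM in controls against 13.7 and 12.95 RPKM under miR-125b, between the controls. Summed 4E-BP transcripts were 10.2 and 23.5 times those of Eif4e per length in control and 8.66 and 12.2 times in miR-125b cells. The high value belonged to control replicate 2. Eif4e2, the cap-binding relative 4EHP, gave 24.5 and 16.6 RPKM in controls against 24.7 and 20.6 RPKM under miR-125b. The groups of this gene, which carries a 7mer-m8 match, overlapped. Eif4e3 gave 6.95 and 6.52 RPKM in controls against 6.12 and 5.80 RPKM under miR-125b, a log2 fold change of -0.15 ± 0.17 (SE). Its groups did not overlap, but the gap between them was smaller than the distance between the controls. Eif4enif1, which encodes the eIF4E transporter 4E-T, gave 25.4 and 18.99 RPKM in controls against 27.2 and 25.4 RPKM under miR-125b. Eif4e1b, an oocyte form, held 1 read in miR-125b replicate 1 and none elsewhere.

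**Figure D4:**
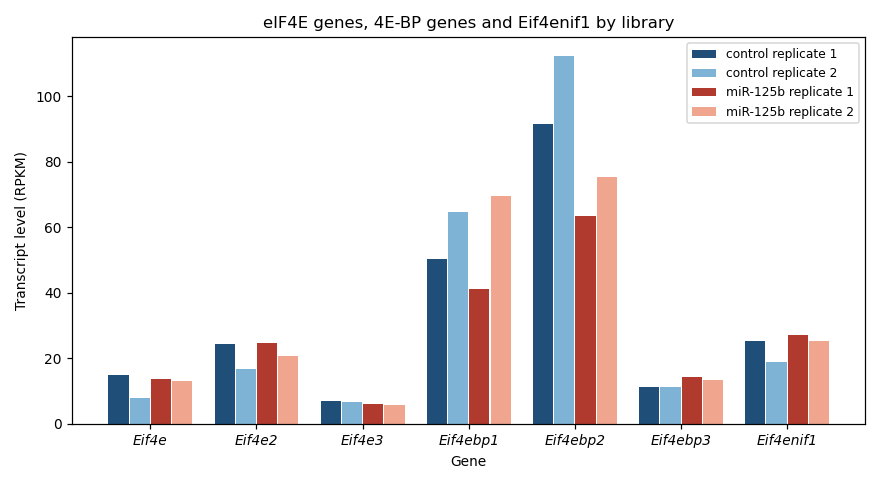
Transcript levels (RPKM) of the 3 eIF4E genes with measurable values, the 3 4E-BP genes and Eif4enif1, with 1 bar per library. Eif4ebp2 is the one gene here in which both miR-125b bars (63.3 and 75.5) lie well below both control bars (91.4 and 112), and the bars of Eif4e3 differ by less.

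Among the eIF4G scaffolds, Eif4g1 was the most abundant, at 170.1 and 133 RPKM in controls against 171 and 166 RPKM under miR-125b. Eif4g2 encodes a relative (DAP5) that lacks the part that binds eIF4E, and it carries 1 7mer-m8 and 1 7mer-A1 match. It gave 148 and 77.4 RPKM in controls against 144 and 119 RPKM under miR-125b. The miR-125b values lay between the controls, and its log2 fold change was 0.76 without control replicate 1 and -0.17 without control replicate 2. Eif4g3 had a mean of 42.2 RPKM in controls against 43.6 RPKM under miR-125b.

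The eIF4A helicases come in a pair of close relatives. Eif4a1, the main helicase of cap-dependent initiation, gave 45.6 and 35.1 RPKM in controls against 33.9 and 33.1 RPKM under miR-125b, and its log2 fold change was -0.25 ± 0.20 (SE, unadjusted p = 0.267). Without control replicate 1 it was -0.063. Eif4a2, its close relative, gave 44.7 and 28.4 RPKM in controls against 44.7 and 35.9 RPKM under miR-125b. The ratio of Eif4a1 to Eif4a2 was 1.02 and 1.23 in control and 0.760 and 0.922 with miR-125b. This pair was chosen after the values were seen, ratios of other pairs were not surveyed, and the difference was not tested. The level of Eif4a1 is uncertain, since 67.2% of its 36-base stretches recur in other annotated genes, mostly the pseudogene Eif4a-ps4. Eif4b, whose product stimulates eIF4A, led this group at 180 and 155 RPKM in controls against 169.8 and 204 RPKM under miR-125b. Eif4h, another stimulating factor, lay between 129.8 and 139.5 RPKM in all libraries.

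The eIF3 complex, the scaffold that holds the small subunit and eIF4G together, held some of the most abundant members. In 10 of its 13 genes the mean lay between 112 and 242 RPKM. Eif3a, its largest subunit, had the highest mean, though Eif3f (271 RPKM) and Eif3h (239 RPKM) exceeded it in control replicate 2 and Eif3h (233 RPKM) in miR-125b replicate 2. Eif3a gave 285 and 199 RPKM in controls against 261 and 224 RPKM under miR-125b. Across 12 tested subunits the median log2 fold change was 0.033, with 9 positive and 3 negative, and the median level was 154 and 132 RPKM in controls against 157 and 153 RPKM under miR-125b. Control replicate 2 was thus the lowest.

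Within the complex, Eif3i gave 146 and 95.4 RPKM in controls against 161 and 159.7 RPKM under miR-125b, a log2 fold change of 0.44 ± 0.25 (SE, unadjusted p = 0.125) that was 0.14 without control replicate 2. Eif3m gave 36.4 and 20.5 RPKM in controls against 38.7 and 37.2 RPKM under miR-125b, with 0.46 ± 0.28 (SE), and 0.058 without control replicate 2. In both genes the miR-125b values lay close above control replicate 1 and far above control replicate 2. Eif3k, whose short 3′ UTR of 198 bases carries a 7mer-m8 match, gave 131 and 156 RPKM in controls against 145 and 147 RPKM under miR-125b. Its miR-125b values fell between the controls. Eif3g, an RNA-binding subunit, gave 175 and 176 RPKM in controls against 158 and 153 RPKM under miR-125b, a log2 fold change of -0.17 ± 0.19 (SE, unadjusted p = 0.388).

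The subunits with the lowest values shared sequence with copies elsewhere. Eif3j held 16 to 27 reads per library (0.536 to 0.972 RPKM) and was not tested, and 57.03% of the 36-base stretches of its GENCODE transcript recur in other genes, chiefly its near-copy Eif3j2. For Eif3m the share was 52.9% and for Eif3e 35.8%, with means of 33.2 and 44.8 RPKM. For Eif3h, however, the share was 34.2% at 227 RPKM, and for Eif3a, Eif3g, Eif3k and Eif3l it was 0%. The rule for counting reads with several matches was not given, and the part of shared sequence in these levels was not tested. Exons of Eif5b, Eif4a2, Eif3j, Eif3m and Eif2a overlap those of a gene on the opposite strand (1240 bases with Rev1, 160 with Rfc4, 103 with Spg11, 81 with Ccdc73 and 64 with Serp1). Whether strand was used in counting was not given, so their reads cannot be told apart there.

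eIF2 carries the initiator tRNA. Eif2s1 (the alpha subunit, whose phosphorylation slows initiation), Eif2s2 (beta) and Eif2s3x (gamma) had means of 25.9, 19.9 and 3.50 RPKM, although the proteins form a complex of equal parts. Shared 36-base stretches amounted to 13.2%, 31.0% and 36.8% of their transcripts. Eif2s3x was the only gamma gene among the members, and the cause of its low level was not tested. Eif2s2 gave 21.7 and 13.2 RPKM in controls against 21.3 and 23.3 RPKM under miR-125b, the low value being control replicate 2. Eif2a, which encodes a separate tRNA-binding factor and no eIF2 subunit, gave 27.9 and 17.4 RPKM in controls against 29.9 and 34.8 RPKM under miR-125b. Its log2 fold change of 0.53 ± 0.26 (SE) was the most positive of all members, with an unadjusted p of 0.0792 and an adjusted p of 0.559 in limma's test. It was 0.86 without control replicate 1 and 0.21 without control replicate 2.

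The 5 genes of eIF2B, the exchange factor for eIF2, had a median log2 fold change of 0.016. Eif2b5, the catalytic subunit, had the highest mean over the 4 libraries, though Eif2b2 was higher in control replicate 2 (47.4 RPKM). Eif2b5 gave 40.7 and 32.9 RPKM in controls against 40.2 and 41.9 RPKM under miR-125b. Eif2b4 was without overlap, at 20.8 and 19.3 RPKM in controls against 18.7 and 16.2 RPKM under miR-125b. The row used for Eif2b3, of 3754 exonic bases, gave a mean of 6.21 RPKM, and its other row, of 1549 bases, gave 18.8 RPKM. Its level therefore depends on the row chosen, while the log2 fold changes of the 2 rows were 0.016 and 0.058. With the GC trend removed the longer row gave -0.061.

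Of the factors that keep the scanning ribosome faithful to the start codon, Eif1 gave 59.7 and 105 RPKM in controls against 55.4 and 58.1 RPKM under miR-125b. Control replicate 2 alone was high. The log2 fold change was -0.48 ± 0.29 (SE, unadjusted p = 0.144), and -0.073 without that library. Eif1ad was placed with these factors by its symbol alone. It is named for a domain like that of eIF1A and was the only member with an 8mer for miR-125b. It gave 47.6 and 31.1 RPKM in controls against 31.1 and 25.1 RPKM under miR-125b. Control replicate 2 and miR-125b replicate 1 were nearly equal, at 31.11 and 31.06 RPKM, so the groups were only just apart. The log2 fold change was -0.45 ± 0.25 (SE, unadjusted p = 0.123), -0.15 without control replicate 1 and -0.75 without control replicate 2. Shared 36-base stretches amounted to 35.6% of the Eif1 transcript, mostly with Emd, and 16.1% of the Eif1ad transcript, mostly with Banf1. Their part in these levels was not tested.

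The row named Eif1ay, whose accession RefSeq now lists as Eif1ax on chromosome X, was the most abundant of this group. It gave 235 and 131 RPKM in controls against 246 and 226 RPKM under miR-125b, and its log2 fold change was 0.42 ± 0.30 (SE). Without control replicate 2 it was 0.0067. Eif1a and Eif1b had means of 46.7 and 57.8 RPKM in controls against 52.7 and 60.8 RPKM under miR-125b.

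Eif5a was the most abundant member, ranking 29th of 10310 genes by mean RPKM. Its protein, which carries the modified lysine hypusine, keeps ribosomes moving through difficult stretches and is now counted among elongation factors as well. It gave 776 and 382 RPKM in controls against 584 and 534 RPKM under miR-125b (chromosome 11, 69730214 to 69734888 in mm9, minus strand). Both miR-125b values lay between the controls, and the log2 fold change was 0.036 ± 0.35 (SE). Its distance between the controls, -1.02 on the log2(RPKM + 1) scale, was the most negative of all members. The transcript of Eif5a has 55.0% GC. Among 2162 tested genes of 53% to 57% GC, a window chosen after the values were seen, the median distance was 0.14. In that window 11 genes, Eif5a included, were as low. The cause of its distance was not tested. Over the 9 rows of Eif5a the log2 fold change ran from 0.036 to 0.19. Its paralogue Eif5a2 held 0 to 4 reads per library. Eif6, which keeps the ribosomal subunits apart, gave 85.4 and 65.3 RPKM in controls against 77.7 and 59.1 RPKM under miR-125b.

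Members with a strong match to the miR-125b seed thus had log2 fold changes on both sides of 0. The values were -0.45 for Eif1ad and -0.088 for Eif4ebp1, but 0.028 for Eif3k, 0.16 for Eif4e2, 0.29 for Eif4ebp3 and 0.29 for Eif4g2. Related translation genes with such a match, from the lists below, had -0.41 (Eef2k), -0.45 (Mknk2), -0.17 (Paip2b), -0.16 (Mlst8), -0.12 (Larp1) and 0.0065 (Eif2ak1). Whether the matches played a part in any of these values was not tested.

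Promoters were searched for CACGTG, the E-box through which MYC and related factors bind, since several initiation factors are textbook MYC targets. In RefSeq windows of 300 bases (250 before and 50 after the start, GRCm38.p6) it occurred in 9 of 35 tested members with a window (25.7%) and in 12.2% of 8221 tested genes. A gene counted if any of its windows held the letters, so genes with several start sites had more chances. This search was not planned beforehand, and the shares were not tested against each other. With untested genes it was found in 10 of 37 members and in 8.09% of all 27025 genes with a window. The letters read the same on both strands. Windows for 3 members with high or pathway-limiting roles are printed with the match in capitals. A match describes the letters only.

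Eif5a, chr11:69921443-69921472, minus strand: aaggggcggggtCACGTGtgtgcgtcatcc
Eif4e, chr3:138527192-138527221, plus strand: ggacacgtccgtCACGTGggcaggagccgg
Eif4g1, chr16:20672661-20672690, plus strand: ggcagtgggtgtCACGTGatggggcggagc

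Other genes of the translation pathway were taken from lists by function. In the 6 lists 0 of 49 tested genes had an unadjusted p under 0.05, in either direction, against 9.38% of all tested genes. Over 8 elongation genes the median log2 fold change was 0.13. Eef2, the translocase, gave 1667 and 2357 RPKM in controls against 1545 and 1853 RPKM under miR-125b. Eef2k, the kinase that inhibits it, had the smallest p of the list and gave 50.9 and 74.9 RPKM in controls against 43.7 and 48.8 RPKM under miR-125b. Over 8 termination and recycling genes the median was 0.21 (0.097 with the GC trend removed), and Hbs1l, a rescue factor for stalled ribosomes, gave 38.7 and 29.6 RPKM in controls against 46.0 and 48.8 RPKM under miR-125b. The release factor gene Etf1 gave 82.8 and 43.2 RPKM in controls against 74.9 and 71.8 RPKM under miR-125b.

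Over the 6 genes that set eIF2 phosphorylation the median was -0.10. Eif2ak2, the kinase PKR, gave 38.6 and 40.0 RPKM in controls against 42.0 and 24.0 RPKM under miR-125b, and Eif2ak4, the kinase GCN2, gave 6.77 and 6.29 RPKM in controls against 7.51 and 7.996 RPKM under miR-125b. Over 12 genes of mTOR and MNK signalling the median was 0.015. Mknk2, a kinase that phosphorylates eIF4E, gave 78.5 and 108.6 RPKM in controls against 64.2 and 70.4 RPKM under miR-125b. Its log2 fold change was -0.45 ± 0.23 (SE, unadjusted p = 0.0869 in limma's test). Its groups did not overlap, and the change ran from -0.68 to -0.22 with libraries left out.

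Over 11 genes of poly(A)-binding proteins and eIF4 modulators the median was 0.093. Pabpc1, the main poly(A)-binding protein, gave 438 and 544 RPKM in controls against 401 and 435 RPKM under miR-125b. Paip1, which links it to eIF4A, gave 5.11 and 2.93 RPKM in controls against 5.398 and 8.40 RPKM under miR-125b (unadjusted p = 0.0594). Over 4 genes of eIF5A hypusination and mitochondrial initiation the median was 0.0096 (-0.031 with the GC trend removed), and Dohh, the enzyme that completes hypusine, gave 45.8 and 56.5 RPKM in controls against 41.9 and 41.1 RPKM under miR-125b.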

How the data were processed

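RNA-seq of 4 32Dclone3 cultures was analysed, 2 per group, with groups and replicate numbers from the sample titles. The authors deposited 1 table per library with RPKM values for 26982 RefSeq transcripts, per the file headers. Genome build mm9 is named in the submitters' processing notes, while the aligner and the read counter were not given in those sources. RPKM multiplied by exon length gave whole reads in 100% of rows (tolerance 0.001 reads). The row of longest exon length was kept per gene. Genes needed 1 RPKM in 2 libraries (10310 genes). limma 3.58.1 (R 4.3.3; trended prior, 2-sided) was fitted to log2(RPKM + 1) over all of them with group as the only term, and adjusted p-values are Benjamini-Hochberg over all of them. A count test had been planned for count files and was not used as the main test. Residual degrees of freedom were 2, with 4.63 from the prior. Replicates came from separate infections of 1 line, so p-values reflect only the spread between those infections. The fit was tested on simulated data with larger changes than any member showed, and without a GC trend or a shift between the controls. That test therefore does not bear on differences of the size seen in the members.

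GENCODE M21 (GRCm38) was joined for 99.1% of genes through accessions or symbols, and only its sequences and names were used. GC content and shared sequence were taken from the GENCODE transcript, which can differ in length from the row that was counted. Shared sequence was counted as 36-base stretches of a member's transcript found in another annotated gene, on either strand. The members and lists were chosen with earlier results of these data known. Members given in every library were the 10 with the smallest p, all Eif4e and Eif4ebp genes, tested members with an 8mer or 7mer-m8, and the most abundant of each role. Other members given by library, and the ratios between members, were added after their values were seen. From each list the gene of smallest p and the most abundant were named.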

Additional observations from a re-analysis of the deposited data

How the results depend on the processing

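With 12 alternative settings, 0 initiation factor genes were called in each. With all 4 libraries and another pseudocount (0.1 RPKM), filter, scaling, model, GC correction or row, the members' count at an unadjusted p under 0.05 stayed at 0 higher and 1 lower. Of the 45 tested members, 5 changed sign with the GC trend removed, and 3, 21, 7 and 4 without control replicates 1 and 2 and miR-125b replicates 1 and 2; in the other alternatives none did. Eif3a turned to -0.084 and Eif2b3 to -0.061 with the GC trend removed. With libraries left out in turn, where a lone library is assumed to vary like the other group, the ranges were -0.24 to 0.28 for Eif3a, -0.10 to 0.16 for Eif3k, -0.15 to 0.67 for Eif4e, -0.11 to 0.42 for Eif4e2, -0.46 to 0.28 for Eif4ebp1, -0.015 to 0.34 for Eif4g1, -0.17 to 0.76 for Eif4g2 and -0.47 to 0.55 for Eif5a. The members' median then ran from -0.073 to 0.28, their higher count from 0 to 12 and their lower count from 0 to 3. Over all genes, calls ran from 0 to 91 (0 and 1 without control replicates 1 and 2, 91 and 25 without miR-125b replicates 1 and 2), and the count at an unadjusted p under 0.05 from 332 (without miR-125b replicate 2) to 3007 (without control replicate 1).

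List medians ran from 0.019 to 0.26 (elongation), -0.17 to 0.52 (termination and recycling), -0.12 to 0.099 (eIF2 alpha kinases and phosphatase subunits), -0.050 to 0.11 (mTOR and MNK), -0.054 to 0.093 (poly(A)-binding proteins and eIF4 modulators) and -0.19 to 0.18 (hypusination and mitochondrial initiation), and their counts at an unadjusted p under 0.05 from 0 to 4, 0 to 5, 0 to 1, 0 to 3, 1 to 5 and 0 to 1. With the GC trend removed the medians were 0.097 for termination and recycling, -0.031 for hypusination and mitochondrial initiation and 0.030 for mTOR and MNK. The poly(A)-binding list's median was 0.024 with it removed and 0.12 with the shortest row, and its count was 1 with limma-voom, as was that of termination and recycling. With the replicate number as a block, 12 genes were called over all genes and 0 members, and the poly(A)-binding list's count was 1. Same-numbered libraries deviated from their group means with a correlation of 0.021, which is the same for both pairs by construction. This value cannot decide whether libraries were paired. They share a number and no known pairing. The cause of these shifts was not tested.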
